A study of Mus musculus with 17 samples.

Results

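Neurexins, neuroligins and LRRTM proteins are adhesion molecules that join the 2 sides of a synapse. The 9 genes described here were taken by symbol from the 25239 genes of the deposited count tables: the neurexins Nrxn2 and Nrxn3, the neuroligins Nlgn1, Nlgn2 and Nlgn3, and Lrrtm1, Lrrtm2, Lrrtm3 and Lrrtm4. The choice was by name and not by a threshold on values, but it was made with earlier results of these data known. Each gene had a row in all 3 tables.

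As background, neurexins are presynaptic receptors whose many transcripts differ by promoter and splicing. Neuroligins and the leucine-rich repeat transmembrane (LRRTM) proteins are postsynaptic ligands that bind neurexins across the cleft, in part at overlapping sites. NLGN1 sits mainly at excitatory synapses, NLGN2 at inhibitory synapses and NLGN3 at both, while the LRRTM proteins act at excitatory synapses and help hold AMPA receptors there. In frontal cortex these genes are expressed chiefly by neurons, some also by glia. Counts per gene do not tell neurexin promoter or splice forms apart.

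The study sequenced bulk RNA of 2 frontal areas, medial prefrontal (mPFC) and orbitofrontal cortex (OFC). All mice were of the DAT-cre line, in which Cre recombinase is driven by the dopamine transporter gene and so acts in dopamine neurons. The labels class each library by how the mouse behaved in oDASS, a test in which mice stimulate their own dopamine neurons with light: perseverers are labelled addicted and renouncers non-addicted. After oDASS there were OFC dissections from perseverers (3 libraries) and renouncers (3), and mPFC dissections from perseverers (3) and renouncers (3). Before oDASS there were brain tissue imprints of the OFC from perseverers (2) and renouncers (3). The labels give no age, no unstimulated group and no statement that replicates are separate animals, so p-values measure the spread between these libraries, which may be technical. In the OFC the stage (after or before oDASS) and the way of collection (dissection or imprint) coincide and cannot be told apart.

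Dissections held 12392731 to 20945108 counts and imprints 8960549 to 10662666. Haemoglobin genes took 0.0253% to 0.0787% of the counts in dissections and 85.4% to 90.7% in 4 imprints. Renouncer imprint replicate 1 stood apart, with 29.7% haemoglobin and 6556037 other counts, against 980475 to 1306576 in the other 4 imprints. Levels are therefore given as CPM, taken over the counts outside haemoglobin genes. The 9 genes had 133 to 2352 counts each in dissections and 0 to 969 in imprints. Neuronal markers such as Snap25, Slc17a7 and Gad1 were present in all 17 libraries.

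By the GENCODE M21 annotation of GRCm38 (mm10), several LRRTM genes lie inside genes of alpha-catenins, which link cadherins to actin, on the opposite strand. Lrrtm1, on chromosome 6 at 77242689 to 77257791, lies within Ctnna2. Lrrtm2, on chromosome 18 at 35209003 to 35215024, lies within Ctnna1 and shares 1.58% of its exon bases with it. Lrrtm3, on chromosome 10 at 63928472 to 64090277, lies within Ctnna3. Lrrtm4, on chromosome 6 at 80018877 to 80810143, has no such host. The library kit does not keep the strand, so reads of overlapping exons on opposite strands cannot be told apart. Values of Lrrtm4 are uncertain for that reason, since 25.1% of its exon bases also belong to Gm4409 on the other strand. Values of Nlgn3 are uncertain because 41.2% of its exon bases also belong to Gm21986 on the same strand.

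In the same annotation Nrxn2 lies on chromosome 19 at 6418731 to 6544169 on the plus strand, and its longest protein-coding transcript has 23 exons. Nrxn3 spans 1612.1 kb of chromosome 12, from 88722876 to 90334935 on the plus strand, with 20 exons. Nlgn1 lies on chromosome 3 at 25426215 to 26332460 and Nlgn2 on chromosome 11 at 69823122 to 69837784, both on the minus strand. Nlgn3 lies on chromosome X at 101299168 to 101325963 on the plus strand, and the longest transcript of each neuroligin has 8 exons. The LRRTM genes have 2 exons each, and Lrrtm3 has 3.

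Promoter windows of 300 bases, 250 before and 50 after a RefSeq start, were found for 6 of the 9 genes in RefSeq's GRCm38.p6 table. Shown are 3 LRRTM genes that moved together between dissections and imprints and Nlgn2, which moved the other way in the fit scaled by TMM. Capitals mark a match, on either strand, to the CRE (TGACGTCA), the GC box (GGGCGG), the CCAAT box (CCAAT) or the TATA box (TATAAA), motifs that do not overlap here.
Lrrtm1 promoter, chr6:77242227-77242526, plus strand: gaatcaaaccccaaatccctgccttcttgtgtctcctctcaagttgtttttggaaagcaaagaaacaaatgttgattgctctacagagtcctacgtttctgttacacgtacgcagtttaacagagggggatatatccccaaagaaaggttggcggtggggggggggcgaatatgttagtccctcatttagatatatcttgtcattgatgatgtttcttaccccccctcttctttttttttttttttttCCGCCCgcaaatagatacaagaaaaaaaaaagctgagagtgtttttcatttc
Lrrtm3 promoter, chr10:64090206-64090505, minus strand: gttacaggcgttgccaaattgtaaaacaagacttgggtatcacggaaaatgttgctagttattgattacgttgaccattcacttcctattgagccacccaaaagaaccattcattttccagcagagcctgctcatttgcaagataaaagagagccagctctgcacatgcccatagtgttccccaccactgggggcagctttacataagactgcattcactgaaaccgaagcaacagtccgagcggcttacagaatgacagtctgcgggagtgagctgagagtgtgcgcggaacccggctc
Lrrtm4 promoter, chr6:80018627-80018926, plus strand: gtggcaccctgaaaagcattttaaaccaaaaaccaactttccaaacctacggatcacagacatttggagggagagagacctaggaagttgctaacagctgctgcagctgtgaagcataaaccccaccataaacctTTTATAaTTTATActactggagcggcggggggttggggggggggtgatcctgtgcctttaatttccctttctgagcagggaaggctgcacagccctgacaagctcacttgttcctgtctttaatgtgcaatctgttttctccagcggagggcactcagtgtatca
Nlgn2 promoter, chr11:69837735-69838034, minus strand: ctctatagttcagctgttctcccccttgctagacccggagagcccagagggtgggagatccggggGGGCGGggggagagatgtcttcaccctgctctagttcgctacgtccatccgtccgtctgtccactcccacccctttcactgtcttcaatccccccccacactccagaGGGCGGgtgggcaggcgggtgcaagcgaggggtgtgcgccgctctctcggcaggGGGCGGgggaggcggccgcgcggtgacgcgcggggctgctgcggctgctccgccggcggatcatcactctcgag

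The Nlgn2 window is the richest of these in G and C, at 68.7%, with 26 CpG dinucleotides and 3 GC boxes. The Lrrtm1 window has 40.7% GC, 7 CpG and 1 GC box. The Lrrtm3 window has 48.7% GC and 10 CpG, and none of the 4 motifs. The Lrrtm4 window shown, the first of 2 in the table, has 48.7% GC, 4 CpG and 2 TATA box matches. The other has 53.3% GC, 9 CpG and none of the 4 motifs. Over 32851 mouse promoter windows the median was 52.7% GC and 7 CpG, and 35.7% held a GC box, 13.6% a TATA box, 37.4% a CCAAT box and 1.79% a CRE. A match is a string of letters, not a known binding site.

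Levels were compared between genes only per kilobase of the deposited gene length. That length differs from the exon bases of GENCODE, most for Nlgn3 (3883 against 9271), Nrxn2 (6663 against 13812) and Lrrtm1 (5369 against 3033). In OFC dissections Nlgn3 averaged 21.5 ± 5.80 CPM per kb and Lrrtm3 21.3 ± 4.18, which did not differ beyond their spread (SD, n = 6 each here and below). Lrrtm1 followed at 12.7 ± 2.86, Lrrtm2 at 11.2 ± 2.15, Nrxn3 at 10.2 ± 2.02 and Nrxn2 at 8.82 ± 0.79. Of these, each mean after that of Lrrtm1 lay within the SD of the gene named before it. Lrrtm4 averaged 5.001 ± 1.40, Nlgn1 2.84 ± 0.73 and Nlgn2 2.001 ± 0.47 CPM per kb. The mPFC kept the same order except that Nrxn3 (12.7 ± 2.34) stood above Lrrtm2 (10.7 ± 1.65). The order depended on the length used. Per kilobase of exon bases Lrrtm1 came first in OFC dissections, at 22.5 ± 5.06, followed by Lrrtm3 at 19.3 ± 3.79, while Nlgn3 had 9.01 ± 2.43. Lrrtm3 was second and Nlgn2, the inhibitory neuroligin, last with either length in both regions. With the deposited length the order in imprints was another, led by Nrxn2 (9.91 ± 5.54 CPM per kb) and Nrxn3 (6.26 ± 5.58). It ended with Lrrtm2 (1.09 ± 0.91) and Lrrtm4 (0.65 ± 0.62). All of these but Nrxn2 had SDs over 5 libraries nearly as large as the means.

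**Figure D1:**
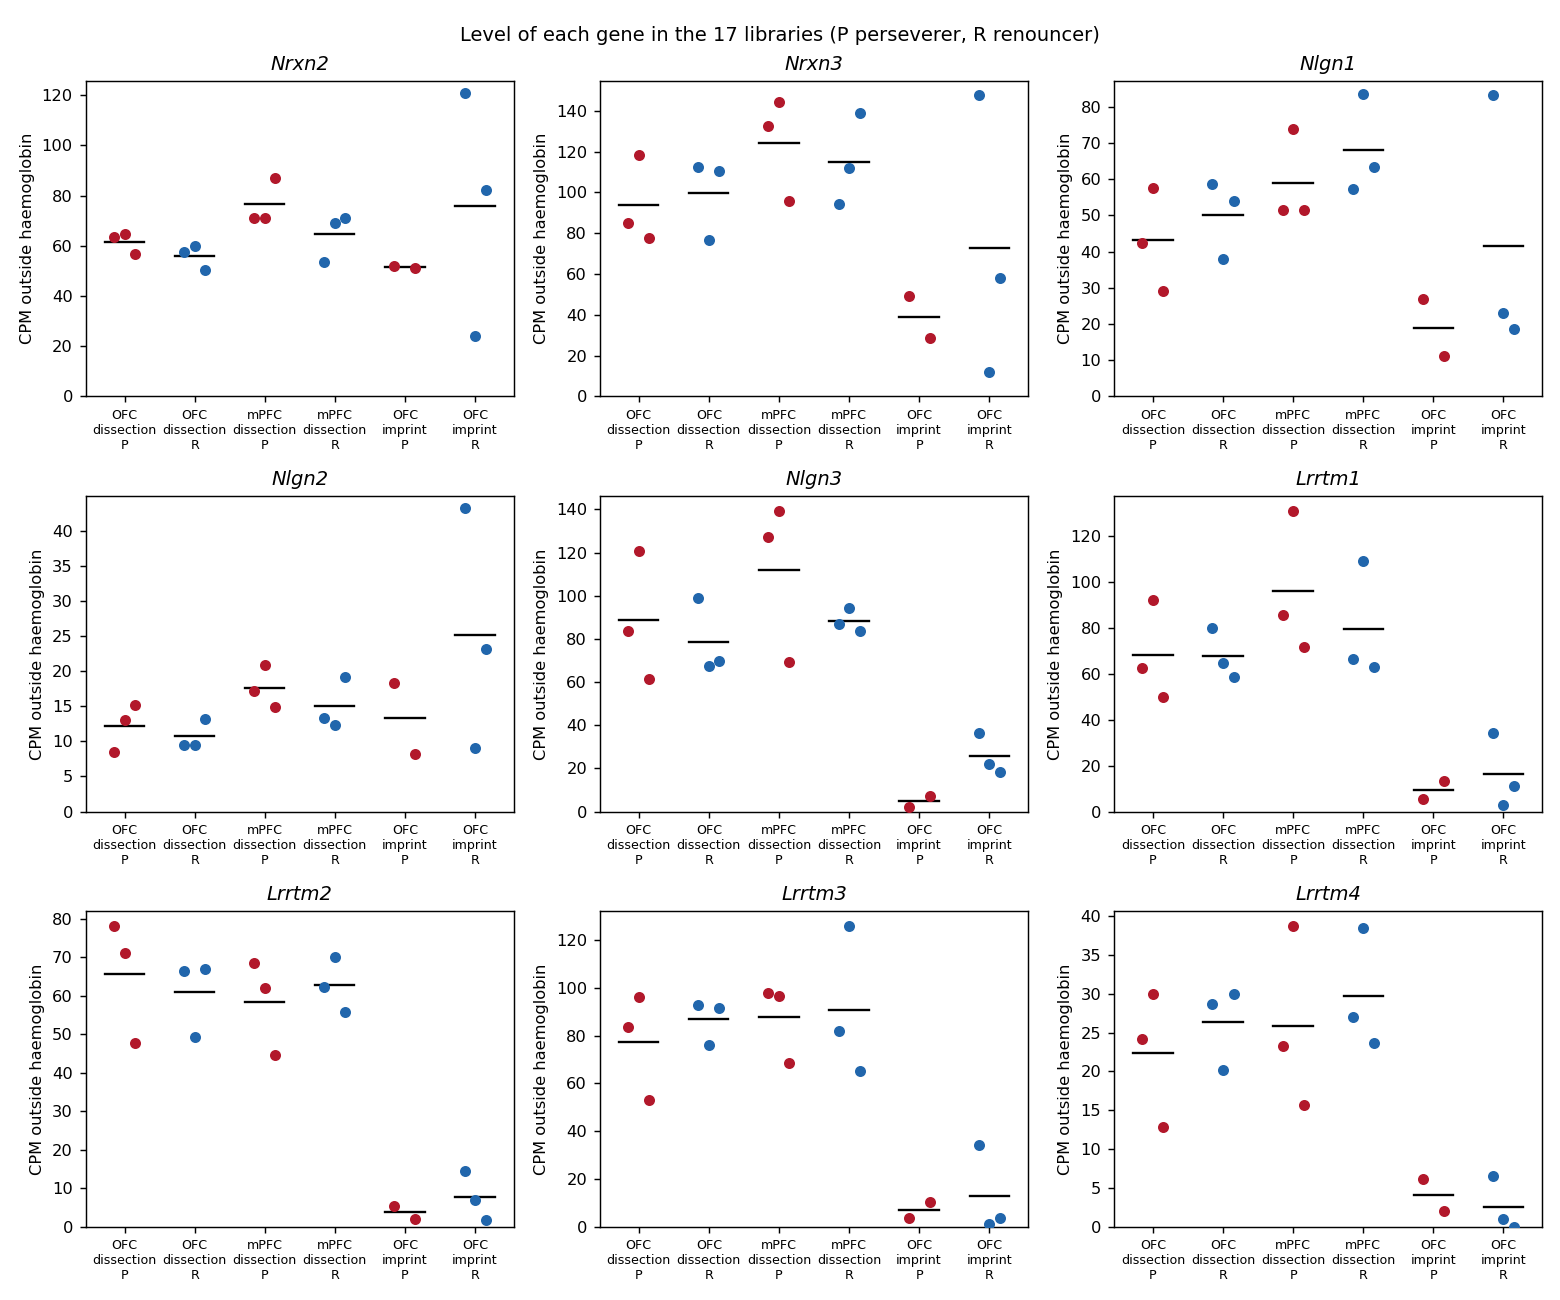
Level of each gene in every library, as CPM over the counts outside haemoglobin genes, for OFC dissections, mPFC dissections and OFC imprints of perseverers (P, red) and renouncers (R, blue); points are libraries and bars are means. Nlgn3 and the 4 LRRTM genes are lower in all 5 imprints than in any OFC dissection, while the perseverer and renouncer points of a region lie largely among each other.

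The first comparison set OFC dissections after oDASS against OFC imprints before it. Nlgn3 and all 4 LRRTM genes were higher in the dissections, by 1.60 to 2.57 on the log2 scale, and Nrxn3 and Nlgn1 did not pass the test. Nrxn2 and Nlgn2 were lower in the fit scaled by TMM, by 0.94 and 1.51, a call that rested on the scaling. In that fit 7 of the 9 genes passed (edgeR's quasi-likelihood test on counts, Benjamini-Hochberg adjusted p under 0.05 over 14236 genes), where 33.1% of all genes passed, 17.5% higher and 15.6% lower. An unadjusted p under 0.05 was reached by 7 of the 9 genes and 43.3% of all genes. The median over the 9 genes was 1.60, against 0.13 over all genes.

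Lrrtm2, whose protein binds neurexins and holds AMPA receptors, had 78.2, 71.2 and 47.6 CPM in perseverer OFC dissections and 66.4, 49.4 and 67.01 in renouncer OFC dissections, against 5.36 and 2.04 in perseverer imprints and 14.5, 7.03 and 1.85 in renouncer imprints. Every dissection stood above every imprint, and the fold change was 2.57 ± 0.38 (log2 ± SE, adjusted p = 7.7e-05, edgeR), or 2.85 without renouncer imprint replicate 1. The imprint values rest on 2 to 95 counts.

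Lrrtm3 had 83.5, 96.2 and 52.9 CPM in perseverer OFC dissections and 92.9, 76.1 and 91.5 in renouncer OFC dissections. In imprints it had 3.83 and 10.2 CPM in perseverers and 34.3, 1.004 and 3.70 in renouncers. The highest imprint, renouncer replicate 1, stayed below the lowest dissection, and the fold change was 2.23 ± 0.45 (adjusted p = 0.0012, edgeR), or 3.05 (adjusted p = 7.2e-05) without that imprint.

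Lrrtm4, whose protein also binds heparan sulfate proteoglycans, was the scarcest LRRTM gene. It had 24.2, 30.0 and 12.9 CPM in perseverer OFC dissections and 28.7, 20.2 and 30.0 in renouncer ones, against 6.12 and 2.04 in perseverer imprints and 6.56, 1.004 and 0 in renouncer imprints. The groups did not overlap. The 0 counts of renouncer imprint replicate 3 allow a level of up to 2.77 CPM, by counting error only. The fold change was 2.13 ± 0.49 (adjusted p = 0.0033, edgeR).

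Lrrtm1 had 62.6, 92.2 and 49.97 CPM in perseverer OFC dissections and 80.1, 64.9 and 58.9 in renouncer ones, against 5.36 and 13.3 in perseverer imprints and 34.3, 3.01 and 11.1 in renouncer imprints. The groups did not overlap, and the fold change was 1.60 ± 0.38 (adjusted p = 0.0038, edgeR). Its host gene Ctnna2 was also higher in dissections, by 0.75 ± 0.20 (adjusted p = 0.0095), while Ctnna1, the host of Lrrtm2, was lower by 0.74 ± 0.23 in the TMM-scaled fit (adjusted p = 0.019) (kept in 14 of 18 alternatives), and Ctnna3, the host of Lrrtm3, was not called (-1.88 ± 1.09, adjusted p = 0.20). As CPM outside haemoglobin genes Ctnna1 was level, at 53.5 ± 8.29 in OFC dissections and 54.2 ± 31.0 in imprints (SD). Ctnna3 turned sign in 2 of 14 alternatives, so its direction is uncertain. The part of host gene reads in the LRRTM values was not tested.

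Nlgn3 had 83.5, 120.5 and 61.5 CPM in perseverer OFC dissections and 98.7, 67.2 and 69.8 in renouncer ones, against 2.30 and 7.14 in perseverer imprints and 36.6, 22.1 and 18.5 in renouncer imprints. All dissections lay above all imprints, and the fold change was 1.61 ± 0.46 (adjusted p = 0.012, edgeR). In all, 5 of the 9 genes had dissections wholly above imprints, which 29.4% of all genes tested also had, and none had them wholly below, as 4.93% did (34.3% in either direction).

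Nlgn2 had 8.51, 12.998 and 15.2 CPM in perseverer OFC dissections and 9.46, 9.51 and 13.2 in renouncer ones, against 18.4 and 8.16 in perseverer imprints and 43.2, 9.04 and 23.1 in renouncer imprints. On this scale the groups overlapped. The TMM-scaled fold change was -1.51 ± 0.35 (adjusted p = 0.0032, edgeR), and with library totals outside haemoglobin genes and no further scaling it was -0.80 (adjusted p = 0.20). That scaling moved the median of all genes to 0.83, so Nlgn2 stood below the median gene under both.

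Nrxn2 had 63.7, 64.6 and 56.7 CPM in perseverer OFC dissections and 57.4, 59.8 and 50.3 in renouncer ones, against 52.0 and 51.0 in perseverer imprints and 120.8, 24.1 and 82.2 in renouncer imprints. The imprints spread on both sides of the dissections. The TMM-scaled fold change was -0.94 ± 0.24 (adjusted p = 0.0070, edgeR), against -0.15 (adjusted p = 0.77) with library totals outside haemoglobin genes. With all counts as the total, haemoglobin included, the median of all genes moved to 2.85 and the values of Nrxn2 and Nlgn2 turned positive, at 1.83 and 1.09. Only the calls of Nlgn3 and the LRRTM genes were thus made under all of these scalings.

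Nrxn3 ranged over 76.6 to 118.5 CPM in OFC dissections and 12.05 to 147.8 in imprints, with a fold change of 0.12 ± 0.30 (adjusted p = 0.79, edgeR). Nlgn1 ranged over 29.2 to 58.6 CPM in OFC dissections and 11.2 to 83.3 in imprints, with a fold change of -0.09 ± 0.31 (adjusted p = 0.84). For both the highest value was that of renouncer imprint replicate 1. Without that library Nlgn1 came to 0.08, and the 7 calls and their directions were kept.

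**Figure D2:**
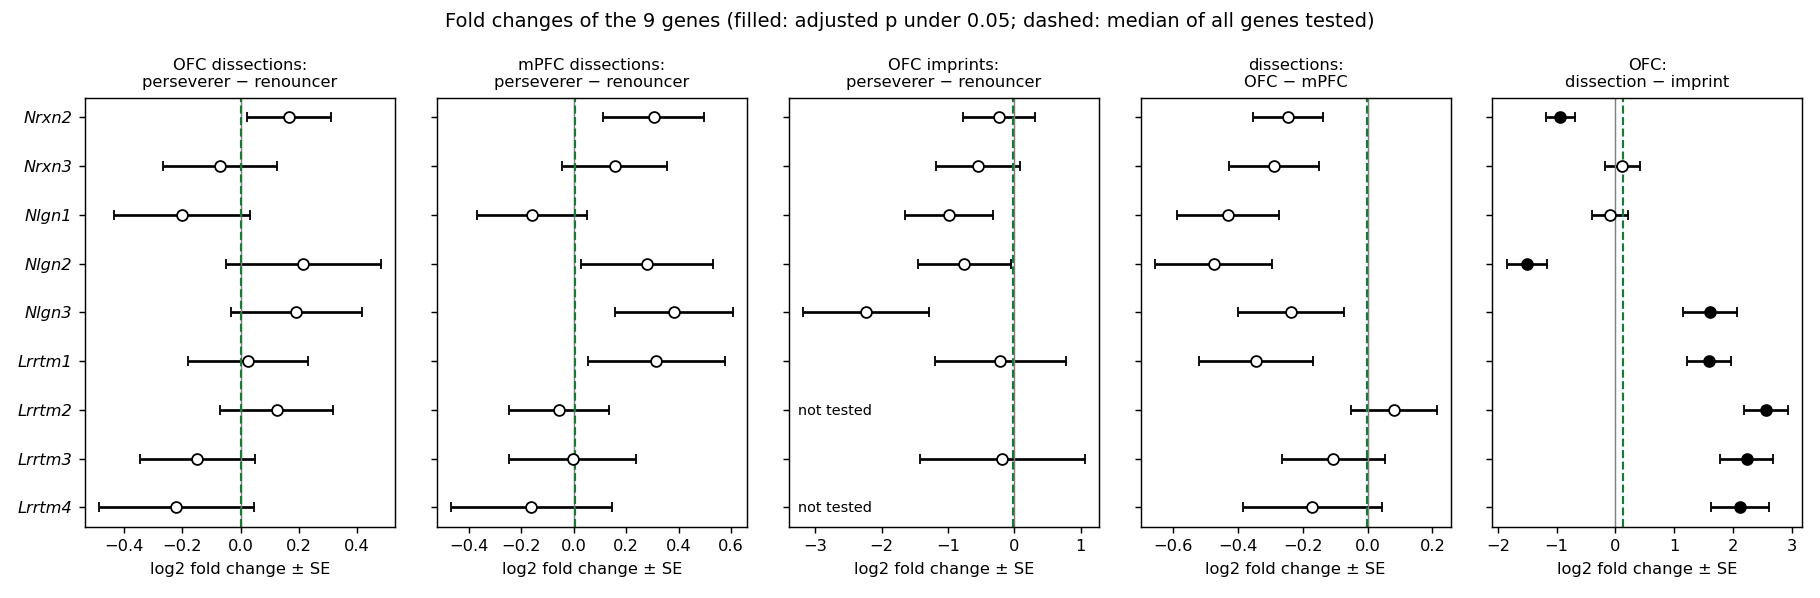
Log2 fold change ± SE of the 9 genes in the 5 comparisons of groups, each panel on its own axis; filled points have an adjusted p under 0.05 and the dashed green line is the median of all genes tested. Filled points occur only in the comparison of OFC dissections with imprints, from -1.51 (Nlgn2) to 2.57 (Lrrtm2).

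Shares within a family, taken from counts per kb of the same library, do not depend on how libraries are scaled, but do depend on the gene lengths. Nlgn3 made up 81.2% ± 3.30 of the neuroligin counts per kb in OFC dissections (SD, n = 6), against 42.8% ± 19.9 in imprints (SD, n = 5), with ranges of 76.3% to 84.3% and 10.9% to 65.6% that did not overlap. Nlgn2 made up 7.996% ± 2.97 in OFC dissections against 37.6% ± 14.7 in imprints, with ranges of 5.38% to 13.1% and 18.2% to 59.0%. The share of Nlgn1 was 10.8% ± 1.83 in OFC dissections and 19.6% ± 7.17 in imprints, and these overlapped. Of the neurexin pair, Nrxn2 made up 46.6% ± 5.70 in OFC dissections, with the highest at 52.5%, against 65.2% ± 8.36 in imprints, with the lowest at 53.7%. With exon bases as the length Nlgn3 made up 61.8% ± 4.76 in OFC dissections and 24.3% ± 13.4 in imprints, Nlgn2 14.3% ± 4.91 and 45.9% ± 12.04, and Nrxn2 36.1% ± 5.26 and 55.0% ± 9.04, again with no overlap. Renouncer imprint replicate 1, the deepest imprint outside haemoglobin, lay between the dissections and the other imprints for Nrxn2 (53.7%) and among the imprints for Nlgn3 (42.8%) and Nlgn2 (34.2%).

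Within the LRRTM family no share separated OFC dissections from imprints. Lrrtm3 made up 42.5% ± 1.86 of the LRRTM counts per kb in OFC dissections and 31.0% ± 14.7 in imprints, Lrrtm1 25.3% ± 3.01 and 37.1% ± 15.6, Lrrtm2 22.4% ± 2.69 and 21.3% ± 19.6, and Lrrtm4 9.81% ± 1.31 and 10.6% ± 11.4. Dissections were alike among themselves and imprints scattered widely on 1 to 225 counts a gene, or 0 for Lrrtm4. No test was made on shares.

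**Figure D3:**
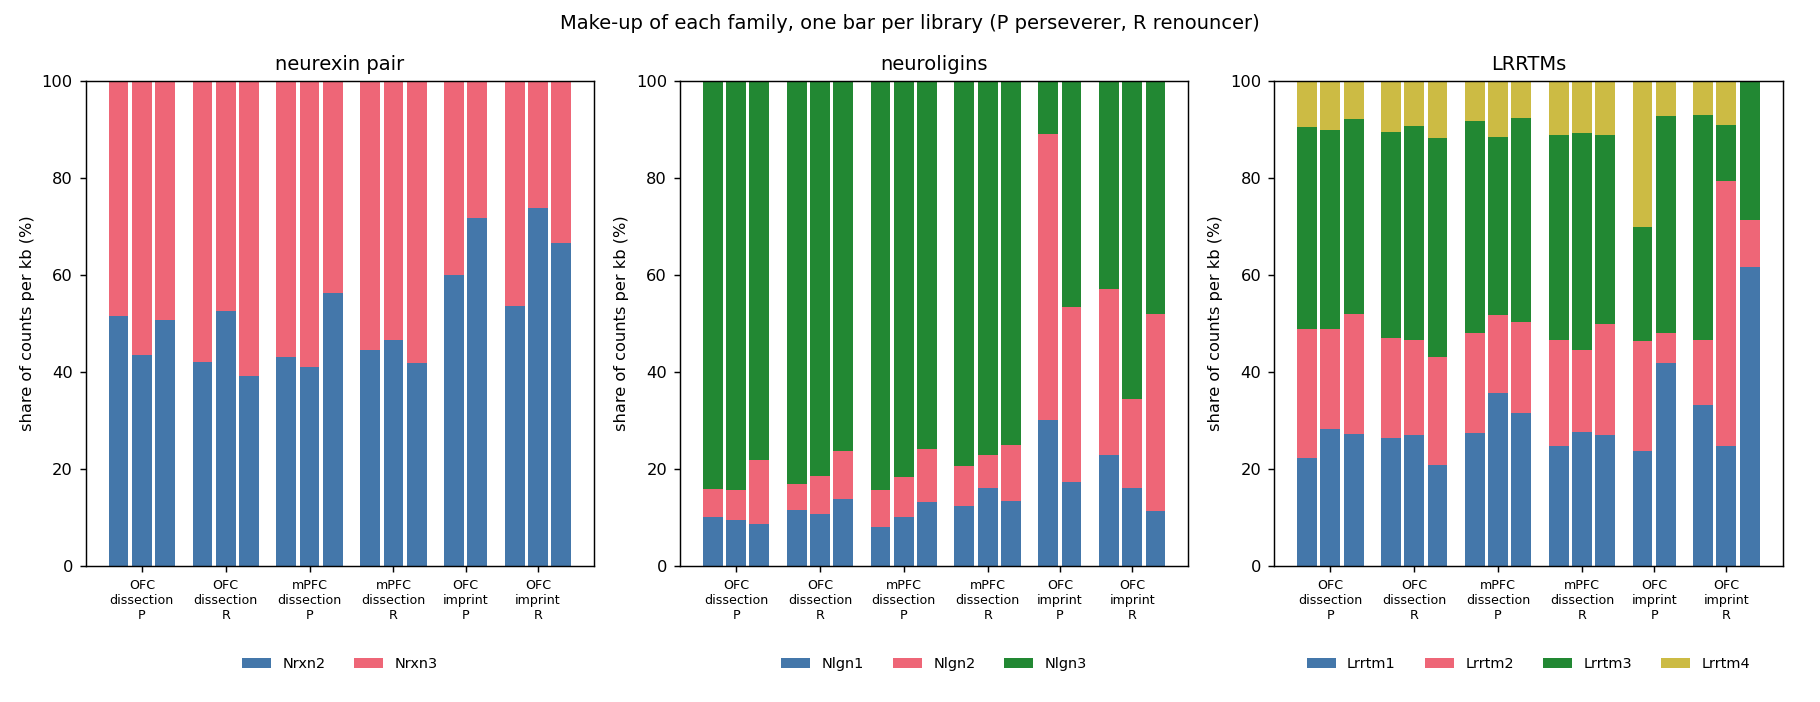
Share of each gene in the counts per kb of its own family, 1 bar per library, for the neurexin pair, the neuroligins and the LRRTM genes, with perseverers (P) and renouncers (R) as labelled. Nlgn3 takes 76.3% to 84.3% of the neuroligins in OFC dissections and 10.9% to 65.6% in imprints, while the LRRTM bars of imprints vary without a common direction.

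Markers of cell types moved in the same comparison. Of 6 pan-neuronal markers 5 were higher in dissections (median 1.42), as were 5 of 5 excitatory (1.11) and 5 of 6 inhibitory neuron markers (1.60). All 4 microglial markers were lower (-1.33) in the TMM-scaled fit. Summed levels in OFC dissections and imprints were 6457 to 8969 and 650 to 3219 CPM for pan-neuronal markers, 3058 to 4698 and 680 to 2789 for excitatory ones, and 619 to 924 and 66.3 to 219.9 for inhibitory ones. Microglial markers summed to 270 to 443 and 284 to 643 CPM, and astrocyte markers to 2277 to 2947 and 339 to 2302, with 3 of 5 called higher. No marker of these lists was at 0 in all imprints. The part of these in the result was not tested, and in bulk tissue fewer cells of a type and less RNA per cell cannot be told apart.

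Other genes of the pathway were read from lists, and their counts stand beside the 17.5% of all genes that were higher and 15.6% that were lower. Of 11 neurexin ligands outside the 3 families 9 could be tested, 7 were higher and none lower, with a median of 1.89. C1ql3, a secreted ligand of neurexins, differed by 2.61 ± 0.42 (adjusted p = 0.00016, edgeR) and Clstn3, a calsyntenin that binds neurexins, by 1.52 ± 0.25 (adjusted p = 0.00018). Of 10 intracellular partners 3 were higher and 1 lower. Apba1, a presynaptic adaptor of neurexin complexes, was higher by 1.09 ± 0.26 (adjusted p = 0.0037), and Sdcbp, which encodes syntenin, a scaffold that binds neurexin tails and is also widely expressed outside neurons, was lower by 1.69 ± 0.37 (adjusted p = 0.0023) in the TMM-scaled fit. Neither of the MDGA genes, whose proteins block neuroligins from neurexins, was called (Mdga1 -0.59 ± 0.50, Mdga2 0.46 ± 0.58).

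A parallel adhesion system, receptor phosphatases and their ligands, had 6 of 10 genes higher and none lower (median 1.33). Slitrk4, a postsynaptic ligand of these phosphatases, differed by 2.81 ± 0.36 (adjusted p = 2.1e-05, edgeR) and Ptprs, one of the phosphatases, by 1.55 ± 0.25 (adjusted p = 0.00018). Of 13 further leucine-rich repeat or netrin-G adhesion genes 7 were higher and none lower (median 1.46). Among them Lrrc4c, the netrin-G1 ligand, differed by 2.19 ± 0.33 (adjusted p = 9.4e-05) and Lrfn5 by 1.98 ± 0.40 (adjusted p = 0.0012).

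The second comparison set the OFC against the mPFC over the 12 dissections, with phenotype as a term. None of the 9 genes passed, where 1.85% of 14409 genes did. That fit treats the 12 libraries as unpaired. With same-numbered libraries of a phenotype as a block, 1148 genes passed and again none of the 9. On the log2 scale 8 of the 9 values were negative and the median was -0.25, against -0.00 over all genes. An unadjusted p under 0.05 was reached by 3 of the 9 genes, and by 14.5% of all genes.

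Nlgn1, the neuroligin of excitatory synapses, had 42.5, 57.7 and 29.2 CPM in perseverer and 58.6, 37.8 and 54.0 in renouncer OFC dissections, against 51.4, 74.0 and 51.4 in perseverer and 57.3, 83.5 and 63.2 in renouncer mPFC dissections. The regions overlapped, and the fold change was -0.43 ± 0.16 (adjusted p = 0.20, edgeR). Nlgn2 ranged over 8.51 to 15.2 CPM in the OFC and 12.4 to 20.8 in the mPFC, with a fold change of -0.48 ± 0.18 (adjusted p = 0.23). Nrxn2 ranged over 50.3 to 64.6 CPM in the OFC and 53.4 to 87.1 in the mPFC, with a fold change of -0.25 ± 0.11 (adjusted p = 0.31). These 3 values are those under an unadjusted p of 0.05.

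Nrxn3 differed by -0.29 ± 0.14, Nlgn3 by -0.24 ± 0.16 and Lrrtm1 by -0.34 ± 0.18 between regions. Lrrtm4 differed by -0.17 ± 0.22, Lrrtm3 by -0.11 ± 0.16 and Lrrtm2 by 0.08 ± 0.13, with adjusted p of 0.36 to 0.85 for these 6 genes (edgeR). No gene of the 9 had regions that did not overlap, which 1.84% of all genes tested had, 1.01% higher and 0.833% lower. The family make-up was also close, with Nlgn3 at 81.2% ± 3.30 of neuroligin counts per kb in the OFC and 78.8% ± 3.61 in the mPFC, and Lrrtm3 at 42.5% ± 1.86 and 41.4% ± 2.9999 of the LRRTM genes (SD, n = 6 each).

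Some secreted ligands of neurexins did differ between the regions. Cbln2, a cerebellin that bridges neurexins to delta glutamate receptors, averaged 101.1 ± 15.9 CPM in the OFC and 62.9 ± 8.77 in the mPFC, a fold change of 0.70 ± 0.11 (adjusted p = 0.0027, edgeR). Cbln4 averaged 19.4 ± 3.87 CPM in the OFC and 10.7 ± 2.01 in the mPFC, a fold change of 0.87 ± 0.14 (adjusted p = 0.0051). C1ql3 averaged 76.0 ± 10.1 CPM in the OFC and 136.8 ± 18.5 in the mPFC, a fold change of -0.83 ± 0.10 (adjusted p = 0.00050). Cbln4 was named after its values were seen, to complete the list's calls. None of these ranges overlapped, and each call was made under all 17 alternatives run. They were the called members of the list of neurexin ligands, 2 higher and 1 lower of 10 tested, beside 0.937% of all genes higher and 0.909% lower. With edgeR none was called in the lists of intracellular partners, MDGA genes, receptor phosphatases or other leucine-rich repeat genes. Mdga1 had 0.65 ± 0.16 (adjusted p = 0.057) and was called in 3 of 17 alternatives, and Ntrk3, of the receptor phosphatase list, had -0.56 ± 0.18 (adjusted p = 0.14) and was called in 2 of 17. Cell type markers differed too, with all 5 oligodendrocyte markers positive (median 0.74, none called) at summed levels of 5440 to 18478 CPM in the OFC and 1859 to 7920 in the mPFC. Gfap, an astrocyte marker, was called higher in the OFC (1.39 ± 0.22, adjusted p = 0.0046), as was Ppp1r1b, a marker of striatal projection neurons (0.76 ± 0.12, adjusted p = 0.0047). Of the inhibitory neuron markers 5 of 6 were negative (median -0.19, none called), at summed levels of 619 to 924 CPM in the OFC and 641 to 1212 in the mPFC. All 3 oligodendrocyte precursor markers were negative (median -0.64, none called), at 25.2 to 51.7 CPM in the OFC and 37.5 to 83.5 in the mPFC. The part of these markers in the values of the 9 genes and of the ligands was not tested.

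The third comparison set perseverers against renouncers. In OFC dissections none of the 9 genes passed, and neither did any of 14621 genes (0%; 377 genes, or 2.58%, at an unadjusted p under 0.05, and 0 and 420 with DESeq2). The fold changes ran from -0.22 ± 0.26 for Lrrtm4 to 0.22 ± 0.27 for Nlgn2, all with adjusted p of 0.95 or more, and the groups of every gene overlapped, while those of 8.91% of all genes did not (4.17% higher and 4.75% lower). In simulated data of these libraries edgeR recovered 52.4% of 2-fold and 10.4% of 1.5-fold changes in this comparison. Of its 120 calls there, 11 were of unchanged genes. Smaller changes, such as those measured for the 9 genes, were not simulated. Genes were simulated independently, without the deviations that real libraries share across genes, so recovery in the real data may differ.

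The neurexins had fold changes of 0.17 ± 0.14 (Nrxn2) and -0.07 ± 0.20 (Nrxn3) in the OFC, and Nlgn1 and Nlgn3 had -0.20 ± 0.23 and 0.19 ± 0.22. Lrrtm1 differed by 0.03 ± 0.21, Lrrtm2 by 0.12 ± 0.19 and Lrrtm3 by -0.15 ± 0.20. The signs were mixed, 5 positive and 4 negative. Perseverer replicate 3 was the lowest of the 6 OFC dissections for Nlgn1 (29.2 CPM), Nlgn3 (61.5), Lrrtm1 (49.97), Lrrtm2 (47.6), Lrrtm3 (52.9) and Lrrtm4 (12.9) and the highest for Nlgn2 (15.2). Family shares separated the OFC phenotypes for Lrrtm3 (40.3% to 41.6% in perseverers, 42.6% to 45.1% in renouncers) and Nlgn1 (8.75% to 10.1% and 10.8% to 13.9%). The other shares overlapped, as did all shares in the mPFC. Shares had no test and no background over other genes.

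In mPFC dissections none of the 9 genes passed either, nor did any of 14375 genes (0%; 639, or 4.45%, at an unadjusted p under 0.05, and 0 and 767 with DESeq2). Nrxn2 had 71.1, 71.2 and 87.1 CPM in perseverers against 53.4, 69.2 and 71.0 in renouncers, the single gene of the 9 whose groups did not overlap, as those of 11.7% of all genes did not (3.97% higher and 7.78% lower). The gap between the nearest libraries was small, and the fold change was 0.30 ± 0.19 (adjusted p = 0.94, edgeR). Nlgn3 had 127.3, 139.3 and 69.2 CPM in perseverers against 86.8, 94.3 and 83.5 in renouncers, a fold change of 0.38 ± 0.22 (adjusted p = 0.94). Its perseverer values held both the highest and the lowest of the 6 libraries. Without perseverer replicate 3 the value of Nlgn3 was 0.62 (adjusted p = 0.31), with no call.

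Of the other genes in the mPFC, Lrrtm1 differed by 0.31 ± 0.26, Nlgn2 by 0.28 ± 0.25 and Nrxn3 by 0.16 ± 0.20. Lrrtm4 differed by -0.16 ± 0.31, Nlgn1 by -0.16 ± 0.21, Lrrtm2 by -0.06 ± 0.19 and Lrrtm3 by -0.00 ± 0.24. All had adjusted p of 0.94 or more (edgeR). The difference between the OFC and mPFC effects, tested as an interaction, was called for none of the 9 genes or of 15025 genes (0%; 225, or 1.5%, at an unadjusted p under 0.05, and 0 with DESeq2), with values from -0.28 ± 0.36 (Lrrtm1) to 0.19 ± 0.27 (Lrrtm2).

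No pathway list had a called gene between phenotypes in either region. Apba1 had the smallest p of the intracellular partners in both, at 0.43 ± 0.15 in the OFC (adjusted p = 0.95, edgeR) and 0.78 ± 0.33 in the mPFC (adjusted p = 0.94). Of the receptor phosphatase list Ntrk3, a neurotrophin receptor that binds them, had -0.40 ± 0.17 in the OFC and Ptprf 0.31 ± 0.18 in the mPFC. Of the neurexin ligands Cbln4 had -0.28 ± 0.20 in the OFC and Adgrl1, a latrophilin, 0.42 ± 0.21 in the mPFC. Flrt1 and Lrfn1 had the smallest p of the leucine-rich repeat list, at 0.42 ± 0.20 in the OFC and 0.46 ± 0.21 in the mPFC. No cell type marker was called between phenotypes. In the OFC 3 of 5 excitatory markers were positive, summing to 4355 to 4698 CPM in perseverers and 3058 to 4040 in renouncers. There 5 of 6 inhibitory markers were negative (619 to 759 and 752 to 924). In the mPFC 5 of 5 excitatory markers were positive (3908 to 6205 and 2969 to 3818) and 4 of 6 inhibitory ones negative (641 to 800 and 886 to 1212). The part of these markers in the phenotype values was not tested.

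In the imprints taken before oDASS 7 of the 9 genes could be tested, and Lrrtm2 and Lrrtm4 fell below the filter on low counts. None passed, nor did any of 10530 genes (0%; 181, or 1.72%, at an unadjusted p under 0.05, and 0 and 237 with DESeq2). Of the 7 genes 1, Nlgn3, had an unadjusted p under 0.05 (edgeR). All 7 values were negative, with a median of -0.55 against -0.03 over all genes. Markers were also mostly negative and none was called, with 5 of 6 pan-neuronal (median -0.21), 4 of 5 excitatory (-0.42), 4 of 5 inhibitory (-0.48) and 5 of 5 astrocyte markers (-0.28). Their summed levels in perseverer and renouncer imprints were 803 to 1857 and 650 to 3219 CPM for pan-neuronal, 709 to 987 and 680 to 2789 for excitatory, 83.6 to 161.5 and 66.3 to 219.9 for inhibitory, and 609 to 990 and 339 to 2302 for astrocyte markers, and their part in the result was not tested. The comparison rests on 2 against 3 libraries, and in simulated data it recovered 0% of 4-fold changes, so the absence of calls says little.

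Nlgn3 had 2.30 and 7.14 CPM in perseverer imprints, against 36.6, 22.1 and 18.5 in renouncer imprints, from 3 and 7 counts against 240, 22 and 20. The groups did not overlap, as for 8.37% of all genes tested (4.5% lower and 3.87% higher), and the fold change was -2.24 ± 0.95 (adjusted p = 0.9999, edgeR). Leaving out 1 library gave -1.30 without perseverer replicate 1, -3.80 without perseverer replicate 2 and -2.31 without renouncer replicate 1. In OFC dissections the same gene stood at 88.5 ± 29.8 CPM in perseverers and 78.6 ± 17.5 in renouncers (SD, n = 3 each). The difference between the effects in dissections and in imprints was 2.53 ± 0.77 for Nlgn3 (adjusted p = 0.46, edgeR), with 1.41 without perseverer imprint replicate 1 and 3.98 without perseverer imprint replicate 2. None of the 9 was called in that interaction, nor any of 15229 genes (0%; 1336, or 8.77%, at an unadjusted p under 0.05), although DESeq2 called 80 genes, none of them among the 9. Of the 9 genes 1, Nlgn3, had an unadjusted p under 0.05 in it (edgeR).

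The other imprint values were -0.99 ± 0.67 for Nlgn1, -0.76 ± 0.70 for Nlgn2, -0.55 ± 0.64 for Nrxn3, -0.23 ± 0.54 for Nrxn2, -0.21 ± 0.99 for Lrrtm1 and -0.18 ± 1.24 for Lrrtm3. Nrxn2 had 52.0 and 51.0 CPM in perseverers, inside the 24.1 to 120.8 of renouncers. Without renouncer replicate 1 the values of Lrrtm1 and Nrxn3 turned positive, at 0.44 and 0.01.

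Within groups most of the 9 genes varied together. Over the 12 dissections, with each value taken as its log2 deviation from the mean of its group, Nlgn1, Nlgn3, Lrrtm1, Lrrtm3 and Lrrtm4 correlated with each other at Pearson's r of 0.67 to 0.88. Nlgn1 and Lrrtm4 were closest, at r = 0.88 (Spearman's rho = 0.88), or 0.81 without the 2 libraries farthest from the median of Nlgn1. Lrrtm2 and Lrrtm3 had r = 0.82 (rho = 0.83), or 0.72 without the 2 libraries farthest from the median of Lrrtm2. Nrxn3 correlated with Nlgn1 and Nlgn3 at 0.67 each, with Lrrtm4 at 0.57 and with Lrrtm1, Lrrtm2 and Lrrtm3 at 0.31 to 0.46. Nrxn2 correlated with none of the other 8 above 0.00, and Nlgn2 above 0 only with Nrxn3, at 0.47. These values, from 36 pairs of genes, are descriptions over 12 libraries with no test, and the libraries share preparation and depth. Whole libraries deviated together too. Over 8393 genes the deviations of mPFC perseverer replicate 3 correlated at 0.739 with OFC perseverer replicate 3 and -0.726 with OFC perseverer replicate 2. Within a group the deviations of a gene sum to 0, so the negative value partly follows from the positive one. Pairs of other genes were not set beside these, so the covariation is not shown to be particular to the 9.

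Single libraries lay on the same side for several genes. Perseverer replicate 3 lay below its group mean for Lrrtm4 by 0.60 on the log2 scale in the OFC and by 0.52 in the mPFC, and perseverer replicate 2 lay above it by 0.43 in the OFC and 0.61 in the mPFC. For Nrxn2 the same 4 deviations were -0.04, 0.27, 0.01 and -0.14 in that order.

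**Figure D4:**
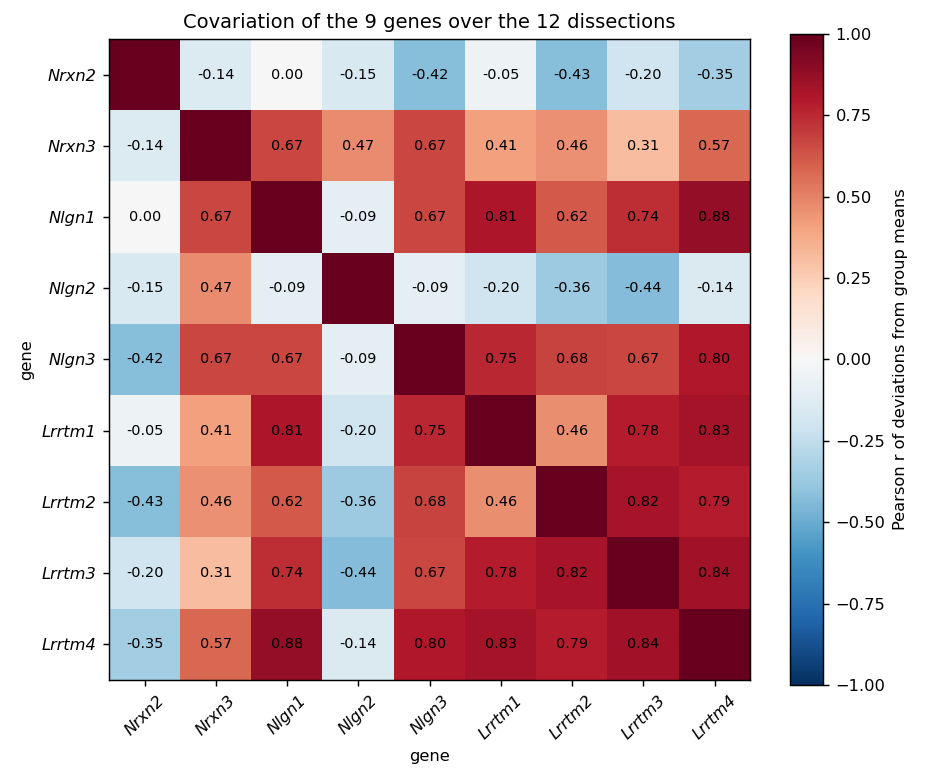
Pearson's r between the 9 genes over the 12 dissections, from log2 deviations from the group means. Nlgn1, Nlgn3 and the LRRTM genes form a block of positive values, up to 0.88 for Nlgn1 and Lrrtm4. Nrxn3 is positive with each of them, at 0.31 to 0.67. The rows of Nrxn2 and Nlgn2 are near 0 or negative except for Nlgn2 with Nrxn3 (0.47).

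The genes most like each member over the 12 dissections, among 9781 genes with a mean of at least 10 CPM, were read from Pearson's r of log2(CPM + 1) as a description. For Nlgn3 Dnm1, the dynamin of synaptic vesicle recycling, was among them, at 0.979. For Nlgn1 they were Cdh8, a cadherin, at 0.975, and Vstm2a at 0.947. Nrxn3 was nearest to Slc5a3 (0.94) and to Gad2 (0.92), a GABA synthesis enzyme, and Nrxn2 to Fgfbp3 (0.90) and to Rbfox2 (0.90), a splicing factor. Nlgn2 was nearest to Atrx (0.93) and Ube3a (0.90). Of the LRRTM genes, Lrrtm1 was nearest to Camk1g (0.945) and Phyhip (0.943), Lrrtm2 to Tgoln2 (0.90) and Chmp7 (0.88), Lrrtm3 to Ero1l (0.96) and Gabra3 (0.91), and Lrrtm4 to Rfxap (0.95) and Hdac2 (0.94).

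In some comparisons fold changes of the 9 genes ran with the GC content of their longest protein-coding transcript. Nrxn2 (62.4%), Nlgn2 (60.7%) and Lrrtm1 (56.1%) were the richest in GC, followed by Nlgn3 (49.3%), Nrxn3 (47.5%) and Lrrtm3 (44.5%), and Nlgn1 (38.9%), Lrrtm2 (38.4%) and Lrrtm4 (38.4%) were the poorest. Across the 9 genes Spearman's rho between fold change and GC was 0.73 for perseverers against renouncers in the OFC, 0.83 in the mPFC and -0.70 for OFC dissections against imprints. It was -0.53 for the OFC against the mPFC and 0.11 in the imprints, over 7 genes. Over all genes with a GC value, at least 93.1% of those tested, the rho of those first 3 was 0.24, 0.20 and -0.11. Over all genes it was -0.007 for the OFC against the mPFC and -0.085 in the imprints. Genes are not independent replicates, no test was made, and the part of GC content in these fold changes was not tested.

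**Figure D5:**
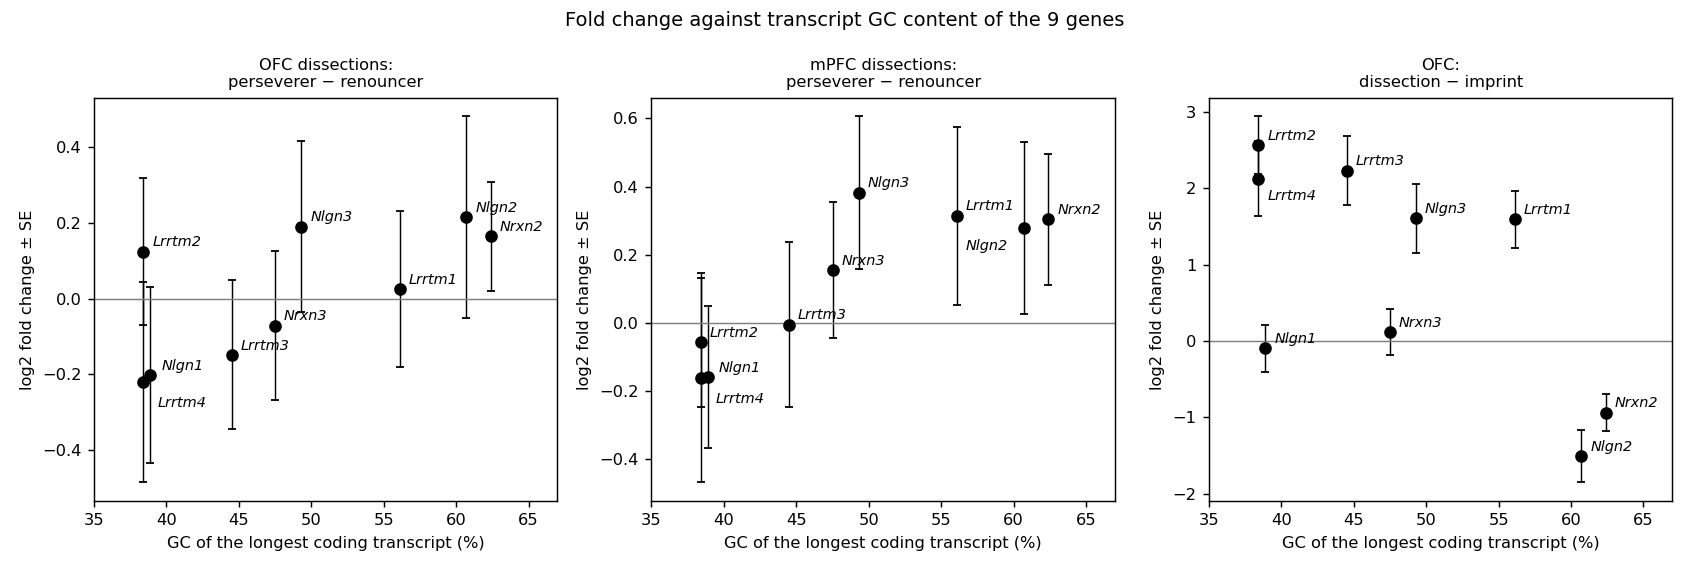
Log2 fold change ± SE against GC content of the longest protein-coding transcript for each of the 9 genes, for perseverers against renouncers in OFC and mPFC dissections and for OFC dissections against imprints. The points rise from left to right in both phenotype panels (rho of 0.73 and 0.83) and fall in the third (-0.70).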

How the data were processed

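Gene-level RNA-seq counts of 17 bulk libraries were used as deposited in 3 tables, raw whole-number counts per gene beside a gene length used for values per kilobase. Per the labels' protocols, RNA was amplified with SMART-Seq v4 and made into Nextera libraries, kits that do not keep the strand, and the submitters' processing notes name mm10 and FastQC 0.11.8. For the aligner, counter and annotation, a name was not given in the sources used here. Groups came from the labels. The members and gene lists were chosen with earlier results of these data known.

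Each comparison was fitted over all genes with edgeR 4.0.16 (R 4.3.3; TMM scaling, filterByExpr, robust quasi-likelihood F test, two-sided, Benjamini-Hochberg), tables by pandas 2.3.3. The SE is the fold change divided by the root of F, an approximation. Region and collection fits had phenotype as a term. Alternatives were DESeq2 1.42.0, RLE scaling, library totals only, no filter, the replicate number as a block, removal of haemoglobin genes and leaving out each library. Library totals without haemoglobin genes, and GENCODE exon bases as the length, were added after seeing the data. Levels in the text are CPM outside haemoglobin genes, in place of the TMM-scaled CPM first planned, because haemoglobin dominated 4 imprints. Depth was 8960549 to 20945108 counts, and intervals or floors cover counting error only.

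The text names all 9 members, the 3 alpha-catenin hosts, up to 2 genes with the smallest p per partner list and comparison, and 2 most similar genes per member, of which 1 for Nlgn3 is not reported here. The fits were tested on simulated data, in which genes varied independently of each other. There 52.4% of 2-fold changes were recovered in the OFC phenotype comparison, 24.2% in the mPFC and 77.2% between regions. Recovery was 14.7% between dissections and imprints and 0% in the imprints. Calls of unchanged genes were 11 of 120 in the OFC phenotype comparison and 7 of 76 in the mPFC. They were 3 of 130 between regions and 2 of 52 between dissections and imprints.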

Additional observations from a re-analysis of the deposited data

How the results depend on the processing

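For the 9 genes 846 of 909 alternative fold changes kept their direction and their side of the threshold, 60 turned sign and 6 crossed the threshold, 3 of which also turned sign; the cause was not tested. In dissections against imprints, library totals only gave 10073 called genes and turned Nlgn1 to 2.40, Nrxn2 to 1.83 and Nlgn2 to 1.09, with Nlgn1 and Nrxn3 (2.56) called and Nrxn2 and Nlgn2 no longer called. Library totals without haemoglobin genes gave Nlgn1 0.61 and ended the calls of Nrxn2 (-0.15) and Nlgn2 (-0.80), and Nlgn1 was 0.0235 with no filter. Library totals only also gave Lrrtm4 1.27 in the phenotype by collection interaction. Between regions DESeq2 called 691 genes, and leaving out 1 library gave 1.2e+02 (without renouncer mPFC replicate 2) to 472 (without perseverer mPFC replicate 3), against 266. In phenotype by collection DESeq2 called 80 genes and leaving out 1 library gave 0 to 4 (4 without perseverer imprint replicate 2), against 0.

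Whether replicate numbers pair the samples between regions was not settled by the correlation of their deviations, -0.11 to 0.74 over 6 pairs. Renouncer replicate 2 had -0.11 and the other pairs had 0.23 to 0.74, and 8 of 12 libraries correlated best with their own number. The library codes of each pair are consecutive, which the labels do not explain. The replicate block gave 1148 called genes between regions and 4185 in dissections against imprints, Lrrtm1 -0.0057 in the OFC phenotype comparison, Lrrtm3 0.038 in the mPFC one and Nlgn1 0.029 in dissections against imprints, and changed no call of the 9 genes. Between regions it gave Nlgn1 -0.44 (adjusted p = 0.0505, edgeR) and Nlgn2 -0.49 (adjusted p = 0.062), higher in the mPFC as without it; the labels do not say whether same-numbered libraries of the regions share an animal, in which case 12 libraries are not 12 independent samples.

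Leaving out 1 library at a time turned 27 fold changes, none of them called. For phenotype in the OFC the ranges were -0.23 to 0.18 (Lrrtm1), -0.013 to 0.28 (Lrrtm2), -0.32 to 0.039 (Lrrtm3), -0.48 to 0.033 (Lrrtm4), -0.0091 to 0.43 (Nlgn2), -0.078 to 0.37 (Nlgn3) and -0.26 to 0.022 (Nrxn3). In the mPFC they were -0.17 to 0.080 (Lrrtm2), -0.19 to 0.31 (Lrrtm3), -0.54 to 0.083 (Lrrtm4) and -0.33 to 0.018 (Nlgn1). In imprints they were -1.60 to 0.58 (Lrrtm1), -1.63 to 0.64 (Lrrtm3), -0.69 to 0.17 (Nrxn2) and -0.92 to 0.012 (Nrxn3). Between regions they were -0.19 to 0.028 (Lrrtm3) and -0.27 to 0.019 (Lrrtm4), and between dissections and imprints -0.22 to 0.082 (Nlgn1) and -0.041 to 0.33 (Nrxn3). For phenotype by region they were -0.48 to 0.051 (Lrrtm3), -0.36 to 0.31 (Lrrtm4), -0.33 to 0.15 (Nlgn1), -0.32 to 0.16 (Nlgn2) and -0.24 to 0.020 (Nrxn2), and for phenotype by collection -0.43 to 1.81 (Lrrtm1), -1.36 to 1.83 (Lrrtm3) and -0.018 to 0.88 (Nrxn2). Imprint counts of a few reads a gene limit every value that rests on them.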
